A study of Mus musculus with 11 samples.

Results

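The genes described here are 10 members of the BCL2 family in mouse group 2 innate lymphoid cells (ILC2s): Bcl2, Bcl2l1, Mcl1, Bax, Bak1, Bcl2l11, Bid, Bbc3, Pmaip1 and Bad. They were taken by name and found by their Entrez gene IDs in a table of 27179 genes, and all 10 passed the filter on low counts. ILC2s are tissue-resident lymphocytes that make IL-5, IL-13 and amphiregulin. The cells came from the large intestine of WT C57BL/6 mice and were kept for 3 h in medium with IL-2 and IL-7, each at 100 ng/ml, in every group. The 4 groups were vehicle (n = 3), ADM2 at 0.4 µg/ml (n = 3), IL-25 at 100 ng/ml (n = 3), and IL-25 plus ADM2 at the same doses (n = 2). ADM2 (adrenomedullin 2) belongs with calcitonin gene-related peptide to one family of hormones and neuropeptides, and IL-25 is an epithelial cytokine that activates ILC2s through IL-17RB. The design asks what each agent changes alone and in the presence of the other. Whether the replicates of a group are separate mice or cultures is not stated, so the p-values reflect the spread among these libraries alone, and that spread may be technical.

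BCL2 family proteins set whether the outer mitochondrial membrane is opened, the step that releases cytochrome c and starts the caspase cascade of intrinsic apoptosis. The pro-survival proteins BCL2, BCL-XL (Bcl2l1) and MCL1 hold the effectors BAX and BAK (Bak1) in check. The BH3-only proteins BIM (Bcl2l11), BID, PUMA (Bbc3), NOXA (Pmaip1) and BAD bind the pro-survival proteins, and BIM, BID and PUMA are also described as direct activators of BAX and BAK. In lymphocytes IL-2 and IL-7 are survival cytokines that act through STAT5 and keep BCL2 or MCL1 high, and BIM is the BH3-only protein best known for deleting lymphocytes deprived of cytokine. RNA is only one layer of this control: BID needs cleavage by caspase-8 or granzyme B, BAD is silenced by phosphorylation, and MCL1 and NOXA proteins turn over quickly.

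The libraries held 25809256 to 35445351 counts each. All 12 markers of ILC2s were found. Their summed levels were 5443 to 5834 CPM (normalised read counts, scaled to library size with TMM factors) in vehicle. In IL-25 plus ADM2 they were 23140 to 25840 CPM. Of these, Il5 averaged 554 CPM in vehicle and 13699 with both agents, Il13 281 and 2455, and Gata3 936 and 1342. Over all libraries, markers of T cells summed to 16.5 to 26.9 CPM and of B cells to 7.32 to 20.9 CPM. Those of NK cells and ILC1s summed to 18.1 to 23.7 CPM and of myeloid cells to 4.60 to 17.8 CPM. The myeloid sum was 5.6 to 6.4 CPM in vehicle and 4.60 to 7.88 with IL-25. It was 12.5 to 17.8 CPM with ADM2 and 10.4 to 14.5 with both. Cd14 was 3.14-fold higher with ADM2 than in vehicle (edgeR adjusted p = 0.00159), at 9.90 against 3.15 CPM on average. The other myeloid markers tested were not called there (edgeR adjusted p of 0.0884 or more). Their log2 fold changes were 1.23 for Lyz2, 0.55 for Csf1r, 0.29 for Adgre1 and -1.37 for S100a8, and S100a9 was not tested. The part of myeloid RNA in the ADM2 results was not tested. Other lists summed higher. The 4 ILC3 markers reached 745 to 886 CPM without IL-25 and 1727 to 1999 CPM with it, carried by Ahr and Il22. The 4 mast cell markers summed to 410 to 937 CPM, all but a trace of it Kit, with Mcpt4 at 0 in every library. The 4 stromal markers summed to 163 to 225 CPM without IL-25 and to 361 to 472 CPM with it, and their values stand beside the IL-25 results below. Counts of the members ran from 104 (Pmaip1) to 19342 (Bcl2l11) per library. In a bulk sample, fewer cells of a type and less RNA per cell cannot be told apart.

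The promoter regions of Bcl2 and Bcl2l11 are shown because these genes, one pro-survival and one pro-death, were the members with the smallest p-values in the comparison of IL-25 with vehicle, in opposite directions. The 250 bases before each annotated start come from RefSeq (GRCm38.p6), printed 5′ to 3′ on the gene's own strand: chr1:106714291-106714540 on the minus strand for Bcl2 and chr2:128125788-128126037 on the plus strand for Bcl2l11. Bcl2l11 had 2 annotated starts, of which the first is shown, and the window of the second held no match. Capitals mark matches to any of the 6 motifs searched.
Bcl2: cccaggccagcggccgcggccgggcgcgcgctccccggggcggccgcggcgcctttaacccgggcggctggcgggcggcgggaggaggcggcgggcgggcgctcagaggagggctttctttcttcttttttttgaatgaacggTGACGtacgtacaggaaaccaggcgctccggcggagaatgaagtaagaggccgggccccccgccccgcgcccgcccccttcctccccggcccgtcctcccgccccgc
Bcl2l11: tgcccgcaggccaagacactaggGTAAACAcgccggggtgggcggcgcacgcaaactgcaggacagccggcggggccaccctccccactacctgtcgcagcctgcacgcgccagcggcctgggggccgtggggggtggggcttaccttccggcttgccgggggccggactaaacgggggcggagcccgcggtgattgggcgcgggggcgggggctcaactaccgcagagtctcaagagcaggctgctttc
The capitals in Bcl2 are the core of a cAMP response element (TGACG), 107 bases before the start, and those in Bcl2l11 are a FOXO motif (TGTTTAC, here on the opposite strand), 227 bases before the start. This core was common, in 20.8% of 32851 promoter windows of 300 bases, and the FOXO motif was in 3.65%. G and C made up 74.8% of the Bcl2 stretch and 72.0% of the Bcl2l11 stretch, against a median of 52.7% over all windows.

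The other motifs were the full cAMP response element (TGACGTCA, 1.79% of windows), a STAT motif (TTCNNNGAA, 8.30%), an E-box (CACGTG, 7.15%) and the NF-kB motif (4.51%), each searched on both strands in windows reaching 50 bases past the start. The core lies within the full element. Windows were found for 9 of the 10 members. Bcl2l1 held an NF-kB match 242 bases before the second of its 3 annotated starts, at chr2:152830940-152830967 on the minus strand, shown because Bcl2l1 was the pro-survival gene that rose with IL-25.
Bcl2l1: tgtttgtgGGGGGTCTCCagcatacgcc
Bbc3 held a FOXO match 167 bases before its second start (chr7:16310084-16310110, plus strand), shown beside that of Bcl2l11 because both genes are known FOXO targets.
Bbc3: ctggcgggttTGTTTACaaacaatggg
Other members also held matches: Bbc3 held a pair of overlapping NF-kB matches, the cAMP response element core and an E-box, Bax held E-boxes, and Mcl1 the same core just after its start. No window of Bid, Bak1 or Bad held any of the 6 motifs, and neither the full cAMP response element nor the STAT motif was in a member's window. These are letter matches and not measured binding.

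**Figure D1:**
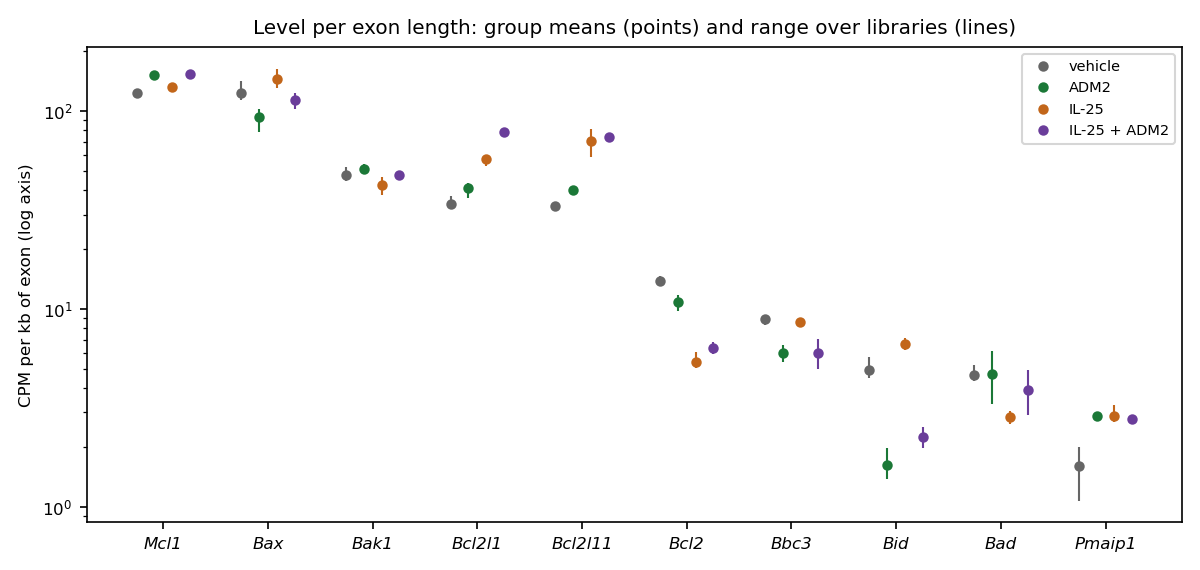
CPM per kb of exon (log axis) of the 10 genes, with points for group means and lines for the range over the 3 libraries (2 for IL-25 plus ADM2). Mcl1 and Bax stood highest in all 4 groups, and the group means of Bid and Bcl2 lay furthest apart.

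Per kilobase of exon, the scale on which genes can be compared with one another, Mcl1 and Bax were the most abundant members in vehicle cells, at 123.8 ± 3.68 and 123.5 ± 15.2 CPM per kb (SD, n = 3), and their libraries overlapped. Bak1 followed at 47.7 CPM per kb, then Bcl2l1 at 34.0 and Bcl2l11 at 33.0, whose ranges also overlapped. Bcl2 stood at 13.9 and Bbc3 at 8.87 CPM per kb. Bid at 4.90 and Bad at 4.63 overlapped, and Pmaip1 was lowest at 1.61 CPM per kb. In IL-25 plus ADM2 the order of means was Mcl1 (153.7), Bax (113.1), Bcl2l1 (77.9), Bcl2l11 (73.5), Bak1 (47.5), Bcl2 (6.34), Bbc3 (5.99), Bad (3.91), Pmaip1 (2.77) and Bid (2.26), all in CPM per kb. The ranges of Bcl2l1 and Bcl2l11 overlapped there, as did those of Bcl2 and Bbc3 and those of Bad and Pmaip1. Bcl2l1 and Bcl2l11 thus stood above Bak1 in both groups with IL-25 and below it in both groups without, and the libraries did not overlap.

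**Figure D2:**
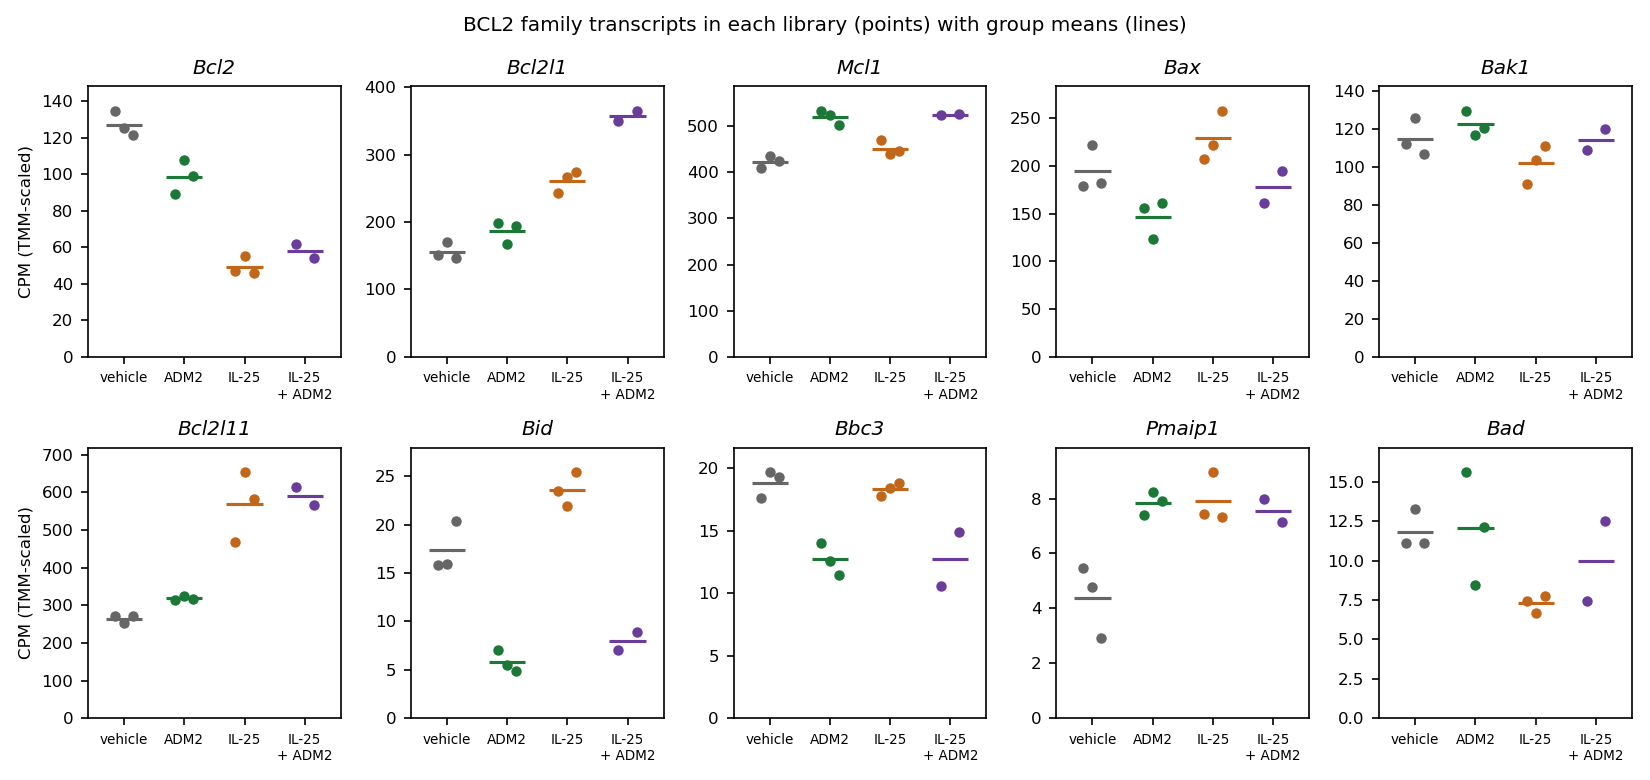
Level of each gene in CPM (linear axis from 0) in the 11 libraries, 1 point a library, with a line at each group mean. Bcl2 fell and Bcl2l11 and Bcl2l1 rose with IL-25, and Bid was low in both groups with ADM2.

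Among the pro-survival genes, IL-25 changed Bcl2 and Bcl2l1 in opposite directions. Bcl2 (chr1:106538176-106714290, mm10, minus strand) was at 135, 125 and 121 CPM in the vehicle libraries, 89.3, 108 and 99.0 with ADM2, 47.0, 55.2 and 46.1 with IL-25, and 62.0 and 54.1 with both. Vehicle, ADM2 and the libraries with IL-25 did not overlap, while IL-25 and IL-25 plus ADM2 overlapped each other. Bcl2 was 2.57-fold lower with IL-25 than in vehicle, a log2 fold change of -1.36 ± 0.11 (SE; edgeR adjusted p = 7.17e-07), and 1.70-fold lower when IL-25 was added to ADM2 (-0.77 ± 0.12, edgeR adjusted p = 8.95e-04). ADM2 alone lowered it by 1.29-fold (log2 fold change -0.37 ± 0.11, edgeR adjusted p = 0.0327). That call was lost without vehicle replicate 1, without ADM2 replicate 1 and without ADM2 replicate 3, with log2 fold changes of -0.36, -0.30 and -0.40. Exons of Bcl2 share 558 bases with the antisense transcript D630008O14Rik, and whether counting used strand is not given in the sources used here.

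Bcl2l1 (chr2:152758732-152833803, minus strand), which encodes BCL-XL, was at 151, 171 and 146 CPM in vehicle, 199, 167 and 195 with ADM2, 243, 267 and 274 with IL-25, and 350 and 365 with both. Vehicle and ADM2 libraries overlapped, and the other groups stood apart in that order. IL-25 raised it by 1.68-fold over vehicle (log2 fold change 0.74 ± 0.10, edgeR adjusted p = 6.33e-05) and by 1.91-fold over ADM2 (0.94 ± 0.11, edgeR adjusted p = 5.00e-05). ADM2 raised it by 1.37-fold on top of IL-25 (0.45 ± 0.11, edgeR adjusted p = 0.0104), a call lost on leaving out replicate 3 of the combined group (0.42, edgeR adjusted p = 0.0894). Without IL-25 the log2 fold change with ADM2 was 0.26 ± 0.10 and did not pass (edgeR adjusted p = 0.0946), though DESeq2 called it (adjusted p = 0.0391). With both agents Bcl2l1 was 2.29-fold above vehicle, the largest increase of a member. The gene yields long and short isoforms with opposite actions on survival, as does Mcl1, and gene-level counts do not separate them. Nor do these counts separate the isoforms of Bcl2l11.

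Mcl1 (chr3:95656944-95663179, plus strand) varied least among the 3 pro-survival genes. Its levels were 410, 435 and 424 CPM in vehicle, 534, 523 and 503 with ADM2, 469, 440 and 445 with IL-25, and 524 and 527 with both. Each library with ADM2 was above each library without it. The log2 fold change with ADM2 was 0.30 ± 0.08 without IL-25 (1.23-fold, edgeR adjusted p = 0.0138) and 0.22 ± 0.08 with IL-25 (edgeR adjusted p = 0.100). The second value was called with DESeq2 (adjusted p = 0.0221) and with upper-quartile factors (0.29, edgeR adjusted p = 0.0314), and the difference between the backgrounds was -0.08 ± 0.11 (edgeR adjusted p = 0.934). With library totals in place of TMM factors, which shift the median of all genes by -0.13 in that comparison, the first value was 0.17 and not called (edgeR adjusted p = 0.128). It was also not called without vehicle replicate 1 or 3 or ADM2 replicate 1 or 3. Its difference between IL-25 and vehicle was 0.09 ± 0.08 on the log2 scale (edgeR adjusted p = 0.437).

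Of the effectors, Bax (chr7:45461695-45466903, minus strand) was at 179, 222 and 183 CPM in vehicle, 156, 123 and 162 with ADM2, 207, 222 and 258 with IL-25, and 161 and 195 with both. The ADM2 libraries lay below all vehicle libraries, and the IL-25 plus ADM2 libraries below all IL-25 libraries. Bax fell with ADM2 by 1.32-fold (log2 fold change -0.40 ± 0.13, edgeR adjusted p = 0.0488), close to the threshold. Leaving out vehicle replicate 2, ADM2 replicate 1, ADM2 replicate 2 or IL-25 replicate 2 ended that call, with log2 fold changes of -0.33, -0.45, -0.29 and -0.40, as did the replicate block (-0.41, edgeR adjusted p = 0.0650). The value on top of IL-25 was -0.36 ± 0.15 (edgeR adjusted p = 0.121). Bak1 (chr17:27019812-27028627, minus strand) was called in no comparison with TMM factors, with group means of 115 ± 9.89, 122 ± 6.54, 102 ± 10.1 (SD, n = 3 each) and 114 ± 7.75 CPM (n = 2) in vehicle, ADM2, IL-25 and both. The 95% interval of its log2 difference was -0.13 to 0.31 for ADM2 and -0.39 to 0.05 for IL-25, both against vehicle. With library totals, which shift the median of all genes by -0.23 in the IL-25 comparison, Bak1 was called lower there (-0.41, edgeR adjusted p = 0.00650). Exons of Bax share 192 bases with Gm45808 on the same strand, which a strand setting would not separate. Those of Bak1 share 177 and 437 bases with annotated entries of Ggnbp1 on the opposite strand. Ggnbp1 averaged 0.43, 0.20, 0.46 and 0.74 CPM in vehicle, ADM2, IL-25 and both.

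Bid fell with ADM2 in both backgrounds, and no other member had as large a change with ADM2. Bid (chr6:120893119-120917062, minus strand), which links death receptors to mitochondria, was at 15.8, 15.9 and 20.4 CPM in vehicle and at 7.02, 5.46 and 4.90 with ADM2. It was at 23.5, 21.9 and 25.4 CPM with IL-25 and at 7.07 and 8.95 with both. All libraries with ADM2 were below all libraries without it, by a gap from 8.95 to 15.8 CPM. The fall was 3.00-fold without IL-25 (log2 fold change -1.58 ± 0.18, edgeR adjusted p = 2.25e-05) and 2.95-fold with it (-1.56 ± 0.21, edgeR adjusted p = 1.32e-04). The difference between these was 0.03 on the log2 scale, with a 95% interval of -0.54 to 0.59. Bid was called in both comparisons under all 20 alternatives, with adjusted p of at most 2.67e-04 and 4.14e-03. Its log2 fold change with IL-25 was 0.44 ± 0.18 (edgeR adjusted p = 0.0858), called with limma voom (adjusted p = 0.0394).

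Exons of Bid share 628 bases with Bcl2l13, a gene on the opposite strand that encodes another BCL2 family protein. Bcl2l13 stood at 70.5, 72.5, 73.8 and 69.6 CPM in vehicle, ADM2, IL-25 and both, and was not called in any of the 4 comparisons between neighbouring groups. The summed level of 5 epithelial markers moved in the same direction as Bid with ADM2, from 157 to 187 CPM in vehicle to 80.8 to 86.4 with ADM2, and from 141 to 166 with IL-25 to 64.6 to 85.7 with both. Epcam alone gave 168, 80.9, 147 and 62.5 CPM of these on average, and the other 4 markers (Krt8, Krt18, Vil1 and Muc2) together 1.27 to 23.6 CPM, highest in IL-25 plus ADM2 replicate 2. The part of epithelial RNA in the Bid result was not tested.

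Bcl2l11 rose with IL-25. Bcl2l11 (chr2:128126038-128162547, plus strand), whose protein BIM binds all the main pro-survival proteins, was at 272, 252 and 271 CPM in vehicle, 315, 324 and 316 with ADM2, 469, 654 and 583 with IL-25, and 615 and 566 with both. No library with IL-25 overlapped one without it, and the IL-25 plus ADM2 values lay within the range of IL-25. The rise was 2.15-fold over vehicle (log2 fold change 1.10 ± 0.11, edgeR adjusted p = 4.04e-06) and 1.85-fold over ADM2 (0.89 ± 0.12, edgeR adjusted p = 1.51e-04). The ADM2 libraries stood above the vehicle libraries, with a log2 fold change of 0.27 ± 0.11 that was not called (edgeR adjusted p = 0.117). Without IL-25 replicate 1, the lowest of its group, that value was called (edgeR adjusted p = 0.0259). It was also called in a fit of only the groups compared (0.26, edgeR adjusted p = 0.0448). Why these calls were gained was not tested. The summed level of the stromal markers was also higher in each library with IL-25, where Bcl2l11 and Bcl2l1 were higher and Bcl2 lower. Of these markers Pecam1 was at 118, 92.0, 307 and 254 CPM on average in vehicle, ADM2, IL-25 and both (2.59-fold higher with IL-25 than in vehicle, edgeR adjusted p = 3.83e-07), while Col1a1, Col3a1 and Dcn were not called in that comparison, with averages of 29.0, 53.5 and 20.0 CPM in vehicle and 32.7, 57.3 and 24.1 with IL-25. The part of stromal RNA in the IL-25 results was not tested.

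Bbc3 (chr7:16308398-16318334, plus strand), the gene of PUMA, fell with ADM2 alone. It was at 17.6, 19.7 and 19.3 CPM in vehicle, 14.0, 12.6 and 11.5 with ADM2, 17.7, 18.4 and 18.8 with IL-25, and 10.6 and 14.9 with both. Every library with ADM2 was below every library without it. The log2 fold change was -0.57 ± 0.15 without IL-25 (1.48-fold, edgeR adjusted p = 0.0197) and -0.53 ± 0.17 with it (edgeR adjusted p = 0.0572). The first call was lost without ADM2 replicate 2 (-0.57) and without ADM2 replicate 3 (-0.54). The second was gained with DESeq2 (adjusted p = 0.0439), with library totals, with a minimum count of 30 and without IL-25 plus ADM2 replicate 3.

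Pmaip1, the gene of NOXA, which binds MCL1, was lower in vehicle than in the 3 treated groups. Its levels were 5.46, 4.79 and 2.93 CPM in vehicle, 7.38, 8.25 and 7.90 with ADM2, 7.43, 8.96 and 7.32 with IL-25, and 7.97 and 7.16 with both. The vehicle libraries did not overlap the others, and the 3 treated groups overlapped one another. The rise was 1.79-fold with ADM2 (log2 fold change 0.84 ± 0.24, edgeR adjusted p = 0.0304) and 1.80-fold with IL-25 (0.85 ± 0.24, edgeR adjusted p = 0.0197). Both calls were lost without vehicle replicate 3, the lowest library, at log2 fold changes of 0.58 and 0.59, and the IL-25 call was also lost without IL-25 replicate 2 (0.75). The ADM2 call was kept in 6 of the 11 fits that left out 1 library. It was also lost with library totals (edgeR adjusted p = 0.0582) and without a filter on low counts (0.0524), and the IL-25 call with library totals (0.0788) and in a fit of only the groups compared (0.0583). With both agents the value against vehicle was 0.78 ± 0.27 (edgeR adjusted p = 0.0517). That value was called with DESeq2 (adjusted p = 0.0225), limma voom (0.0379), median-ratio factors (0.0466) and a minimum count of 30 (0.0406).

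Bad (chr19:6941861-6951905, plus strand) was at 11.1, 13.3 and 11.1 CPM in vehicle, 15.6, 8.43 and 12.1 with ADM2, 7.43, 6.70 and 7.78 with IL-25, and 7.45 and 12.5 with both. IL-25 libraries lay below all vehicle libraries, and the other groups overlapped. Bad fell with IL-25 by 1.62-fold (log2 fold change -0.70 ± 0.24, edgeR adjusted p = 0.0499), at the threshold. The call was lost with limma voom (adjusted p = 0.0569) and the replicate block (edgeR adjusted p = 0.0516) and was kept in 4 of the 11 fits that left out 1 library: it was lost on leaving out any vehicle library, any IL-25 library or ADM2 replicate 3. Exons of Bad share 524 bases with Gpr137 on the opposite strand, at 11.4, 11.9, 9.02 and 10.2 CPM in the 4 groups in the same order as above.

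**Figure D3:**
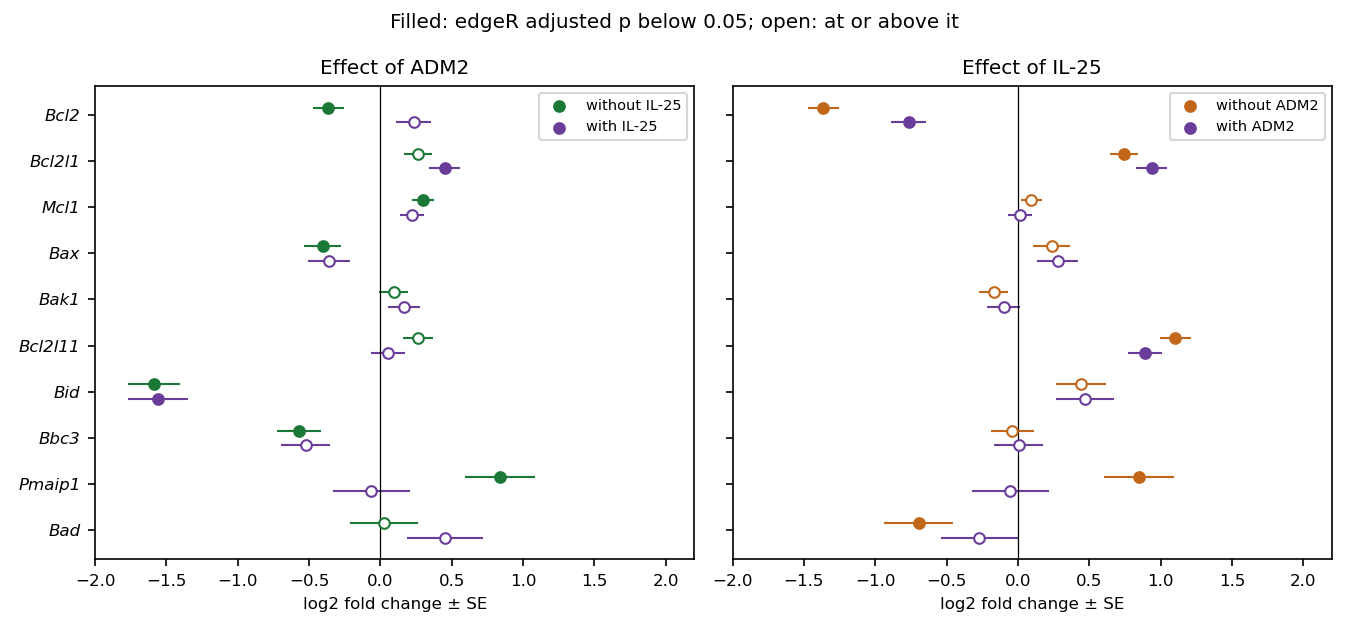
Log2 fold change ± SE of each gene with ADM2 (left) and with IL-25 (right), in the absence and presence of the other agent, with filled points for an edgeR adjusted p below 0.05. The Bid points for ADM2 lie at -1.58 and -1.56, and the Bcl2, Bcl2l1 and Bcl2l11 points for IL-25 are filled in both backgrounds.

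Counted over the family, ADM2 versus vehicle called 6 of 10 members (Mcl1 and Pmaip1 higher, Bid, Bbc3, Bcl2 and Bax lower), where 14.8% of the 15028 genes tested were called, 7.39% higher and 7.43% lower. Of these 6, the call of Bid was the one kept under every alternative. The count was 2 without ADM2 replicate 1 or 3 and 3 without ADM2 replicate 2. Over all genes 1721, 1709 and 1706 were called without ADM2 replicates 1, 3 and 2 in turn, against 2227 in the main fit. IL-25 versus vehicle called 5 of 10 (Bcl2l11, Bcl2l1 and Pmaip1 higher, Bcl2 and Bad lower), against 23.3% of all genes, 13.0% higher and 10.4% lower. Without vehicle replicate 3 or without IL-25 replicate 2 the count was 3, with 2548 and 3318 of all genes called (3503 in the main fit). Bcl2, Bcl2l11 and Bcl2l1 were called under all 20 alternatives. IL-25 plus ADM2 versus IL-25 called 2 of 10 (Bcl2l1 higher, Bid lower), against 14.6%, 6.53% higher and 8.10% lower. With DESeq2 the count was 4, with Mcl1 and Bbc3 added, and 2741 of all genes were called (2198 by edgeR).

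IL-25 plus ADM2 versus ADM2 called 3 of 10 (Bcl2l1 and Bcl2l11 higher, Bcl2 lower), against 10.8% of all genes, 6.17% higher and 4.68% lower, and all 3 calls stood under the 20 alternatives. IL-25 plus ADM2 versus vehicle called 6 of 10 (Bcl2l1, Bcl2l11 and Mcl1 higher, Bcl2, Bid and Bbc3 lower), against 20.2%, 10.6% higher and 9.64% lower. Of these, Mcl1 (log2 fold change 0.31) and Bbc3 (-0.57) lost their call in some of the alternatives, Mcl1 with library totals at 0.04 and Bbc3 without IL-25 plus ADM2 replicate 2 at -0.34, and Bax was called lower with library totals (-0.40, edgeR adjusted p = 0.0467). These comparisons share libraries and are not independent of one another. The counts were not tested against these shares. With upper-quartile factors 44.6% of the calls of IL-25 versus vehicle were higher (55.6% with TMM factors) and 57.4% of those of IL-25 plus ADM2 versus IL-25 (44.6%). With library totals the higher share was 27.5%, 22.5%, 30.2% and 18.4% for ADM2 versus vehicle, IL-25 versus vehicle, IL-25 plus ADM2 versus ADM2 and IL-25 plus ADM2 versus vehicle, against 49.9%, 55.6%, 56.9% and 52.4%. The median log2 fold change of the members was 0.06 with ADM2, 0.16 with IL-25 and 0.11 with ADM2 on top of IL-25, beside -0.01, 0.00 and -0.01 over all genes, since rises and falls stood side by side.

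The difference of the ADM2 effect between the backgrounds with and without IL-25 was called for 0 of 10 members by edgeR, DESeq2 or limma voom, and for 0.0333% of all genes by edgeR (5 genes, 0.0133% higher and 0.0200% lower). By edgeR 2 members had an unadjusted p below 0.05. For Bcl2 the log2 fold change with ADM2 was -0.37 without IL-25 and 0.23 with it, a difference of 0.60 ± 0.16 (95% interval 0.25 to 0.94, edgeR adjusted p = 0.484, unadjusted 0.00227). For Pmaip1 the values were 0.84 and -0.06, a difference of -0.90 ± 0.37 (edgeR adjusted p = 0.699, unadjusted 0.0263). The other 8 members had differences between -0.21 (Bcl2l11) and 0.43 (Bad), with intervals that include 0.

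**Figure D4:**
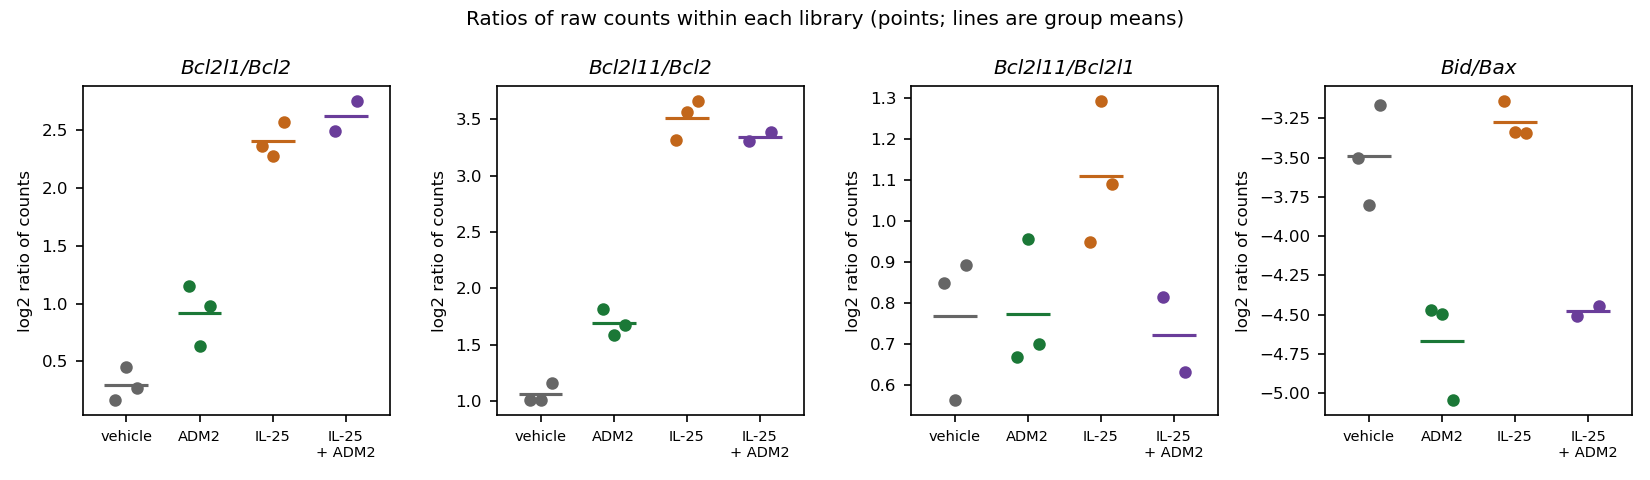
Log2 ratio of raw counts of 2 members within each library, 1 point a library, with group means as lines. Ratios of Bcl2l1 and Bcl2l11 to Bcl2 climb with IL-25, and that of Bid to Bax drops with ADM2. The log2 ratio of Bcl2l11 to Bcl2l1 lies within 0.56 to 1.29, higher in each IL-25 library than in each library of vehicle or of both agents.

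Ratios of counts within a library do not depend on the scaling between libraries, though they do depend on gene length, so they are compared only between groups. The ratio of Bcl2l1 to Bcl2 was 1.12 to 1.36 in vehicle, 1.55 to 2.23 with ADM2, 4.84 to 5.95 with IL-25 and 5.64 to 6.75 with both, and only the IL-25 groups overlapped. The ratio of Bcl2l11 to Bcl2 moved alike, from 2.01 to 2.23 in vehicle to 3.00 to 3.53 with ADM2, 9.97 to 12.7 with IL-25 and 9.91 to 10.5 with both. The ratio of Bcl2l11 to Bcl2l1, a pro-death to a pro-survival transcript, was 1.48 to 1.86 in vehicle, 1.59 to 1.94 with ADM2, 1.93 to 2.45 with IL-25 and 1.55 to 1.76 with both. Each IL-25 library was above each vehicle library and each library with both agents. Its ranges in vehicle, ADM2 and the combined treatment overlapped, and that of IL-25 overlapped ADM2 at its lower end. The mean log2 ratios were 0.77, 0.77, 1.11 and 0.72 in vehicle, ADM2, IL-25 and both. The ratio of Bcl2l11 to Mcl1 was 0.580 to 0.663 in vehicle, 0.591 to 0.629 with ADM2, 0.999 to 1.49 with IL-25 and 1.07 to 1.17 with both, so it was higher in every library with IL-25. The ratio of Bid to Bax was 0.0717 to 0.112 in vehicle and 0.0985 to 0.114 with IL-25, against 0.0303 to 0.0450 with ADM2 and 0.0438 to 0.0459 with both. The ratios are given as descriptions, with no test.

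The genes most alike to the 3 members that varied most between groups by an overall edgeR F test were taken by the root mean square difference of centred log2 CPM over the 11 libraries. For Bcl2, whose log2 levels spanned 1.55, these were Rbl2 (a retinoblastoma-like pocket protein; difference 0.0962), Nagk (0.117) and Mapk14 (the kinase p38α; 0.121). For Bcl2l11, spanning 1.37, they were Pim1 (a survival kinase induced by cytokines; 0.0815), Txnrd1 (thioredoxin reductase; 0.121) and Slco3a1 (0.124). Pim1 stood at 644, 718, 1224 and 1345 CPM in vehicle, ADM2, IL-25 and both. For Bid, spanning 2.36, they were Stom (stomatin, a membrane protein; 0.158), Dctd (deoxycytidylate deaminase; 0.221) and Smyd2 (a lysine methyltransferase; 0.224). Stom was at 246, 89.4, 339 and 116 CPM in the same order. No p is given, since these are the nearest of many profiles.

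The lists below are given by counts of called genes, which were not tested against the shares over all genes. Those shares were 14.8% with ADM2, 23.3% with IL-25 and 20.2% with both against vehicle. They were 14.6% with ADM2 on top of IL-25 and 10.8% with IL-25 on top of ADM2. Of 15 further BCL2 family genes, 12 were tested. ADM2 alone called 2, Bcl2a1d (higher, log2 fold change 0.96 ± 0.19), a paralog of the pro-survival A1 gene, and Bmf (lower, -1.02 ± 0.25), a BH3-only gene, with a list median of 0.08. IL-25 called 4: Bcl2a1d (0.95), Bcl2a1b (0.97) and Bik (0.52), a BH3-only gene, were higher and Bcl2l12 (-0.91) lower, with a list median of 0.23. With both agents against vehicle Bcl2a1d (1.54) and Bcl2a1b (1.46) were higher and Bmf (-1.36) lower, with a list median of -0.02 as over all genes. When the combined group was set against IL-25 and against ADM2, edgeR called 0 of the 12 (3 at unadjusted p below 0.05 in each), DESeq2 called 1 in each, and limma voom 1 and 0. The Bcl2a1 paralogs are near-identical in sequence, so how reads were divided among them is uncertain.

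Downstream of the mitochondria, 20 genes of the apoptosome, caspases and their inhibitors were tested. ADM2 alone raised 3 and lowered 3 of them, with Apaf1 (the apoptosome scaffold, 0.40 ± 0.09) higher and Parp1 (-0.39 ± 0.10) and Dffa (the inhibitor of the apoptotic nuclease, -0.47 ± 0.12) lower. IL-25 raised 5 and lowered 2, with Birc3 (the inhibitor cIAP2, 1.02 ± 0.08), Cycs (cytochrome c, 0.68 ± 0.12) and Vdac2 (0.56 ± 0.10) higher and Casp9 (the initiator caspase, -1.21 ± 0.17) lower. Casp9 was at 13.8 ± 1.51 CPM in vehicle and 5.95 ± 0.302 with IL-25 (SD, n = 3 each). ADM2 on top of IL-25 raised 1 and lowered 2, with Dffa (-0.69) lower. IL-25 on top of ADM2 called 3, with Birc3 (1.04) and Vdac2 (0.41) higher and Casp9 (-0.69) lower. Both agents against vehicle raised 3 and lowered 3, among them Birc3 (0.94), Apaf1 (0.40) and Vdac2 (0.46) higher and Parp1 (-0.52) lower. The list medians in these 5 comparisons were 0.00, 0.06, -0.14, -0.08 and -0.08, beside all-gene medians between -0.02 and 0.00. The shares of all genes called were 14.8%, 23.3%, 14.6%, 10.8% and 20.2% in the same order.

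Of 14 tested genes of death receptor and necroptosis signalling, which acts on Bid through caspase-8, ADM2 alone raised 2 and lowered 3. Tnfsf10 (the ligand TRAIL) fell by 1.13 on the log2 scale, from 96.6 ± 7.33 to 44.2 ± 4.82 CPM (SD, n = 3 each), and Fas, the Fas receptor, fell by 0.65, while Ripk3 (0.48) and Mlkl (0.46), the necroptosis kinase and pore protein, were higher. IL-25 raised 4 and lowered 3, with Tnfrsf10b (the TRAIL receptor, 0.94), Fas (0.95) and Cflar (c-FLIP, a caspase-8 inhibitor, 1.08) higher and Mlkl (-0.57) lower. ADM2 on top of IL-25 raised 1 and lowered 5, with Tnfsf10 (-1.33), Fas (-0.64) and Cflar (-0.68) lower and Mlkl (0.54) higher. IL-25 on top of ADM2 raised 4 and lowered 1, among them Fas (0.95), Tnfrsf10b (0.66), Cflar (0.85) and Traf2 (0.47) higher. Both agents against vehicle called 2, Tnfsf10 (-1.27) lower and Tnfrsf10b (0.49) higher. The list medians in the 5 comparisons were -0.08, 0.05, -0.17, -0.09 and 0.03. The shares of all genes called were 14.8%, 23.3%, 14.6%, 10.8% and 20.2% in the same order.

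Of 31 listed regulators of the members, 30 were tested, and IL-25 raised 13 and lowered 2 of them (list median 0.23). Stat5a and Stat5b, which carry IL-2 and IL-7 signals, rose with IL-25 by 1.97 ± 0.13 and 0.93 ± 0.10 on the log2 scale, and the survival kinases Pim2 and Pim3 by 1.17 ± 0.11 and 1.04 ± 0.08. ADM2 alone raised 7 and lowered 5 (list median 0.09), with Nfil3 (1.02 ± 0.10) and Tsc22d3 (0.90 ± 0.13) higher and Pim2 (-1.01 ± 0.11) and Stat5a (-0.87 ± 0.13) lower. On top of IL-25 ADM2 raised 3 and lowered 3 (list median -0.02), with Tsc22d3 (1.28) and Nfil3 (0.91) higher and Stat5a (-0.88) and Stat5b (-0.69) lower. Stat5a was at 184 ± 14.7, 101 ± 0.672, 725 ± 154 (SD, n = 3 each) and 393 ± 14.8 CPM (n = 2) in vehicle, ADM2, IL-25 and both. IL-25 on top of ADM2 raised 10 and lowered 0 of the 30 (list median 0.08), with Stat5a (1.96), Pim2 (1.73), Pim1 (0.91) and Pim3 (0.62) first by p. Both agents against vehicle raised 12 and lowered 2 (list median 0.27), led by Nfil3 (1.41), Pim3 (1.09), Pim1 (1.06) and Jun (1.35). Of all genes, 13.0% were called higher and 10.4% lower with IL-25, and 7.39% and 7.43% with ADM2 alone. These shares were 6.53% and 8.10% for ADM2 on top of IL-25, and 6.17% and 4.68% for IL-25 on top of ADM2. For both agents against vehicle they were 10.6% and 9.64%.

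Bbc3, Pmaip1 and Bax are known targets of p53, and 18 other p53 target genes were tested beside them. ADM2 alone raised 4 and lowered 4, with Plk2 (1.66 ± 0.13), Perp (1.65 ± 0.15) and Btg2 (0.69 ± 0.10) higher and Aen (-0.75 ± 0.13) lower. IL-25 raised 7 and lowered 1, with Tnfrsf10b (0.94), Fas (0.95), Plk2 (0.89) and Cdkn1a (the cell cycle inhibitor p21, 0.42) higher. ADM2 on top of IL-25 raised 4 and lowered 6, with Perp (1.62), Plk2 (1.30) and Btg2 (0.74) higher and Phlda3 (-0.90) lower. IL-25 on top of ADM2 raised 6 and lowered 0, among them Fas (0.95), Tnfrsf10b (0.66), Aen (0.67) and Cdkn1a (0.36). Both agents against vehicle raised 6 and lowered 3, with Plk2 (2.19), Cdkn1a (0.79), Btg2 (0.80) and Perp (1.17) higher. The list medians were -0.14, 0.39, -0.24, 0.16 and 0.33. The shares of all genes called were 14.8%, 23.3%, 14.6%, 10.8% and 20.2% in the same order. Fas and Tnfrsf10b stand in both this and the death receptor list, and Mdm2 in both this and the regulator list. For the difference of the ADM2 effect edgeR, DESeq2 and limma voom called 0 genes in each of the 5 lists, with 0 to 3 genes a list at an unadjusted edgeR p below 0.05.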

How the data were processed

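The authors deposited unnormalised gene counts, keyed by Entrez ID, for 11 libraries of sorted ILC2s. The submitters' processing notes name featureCounts, limma and mm10, with neither versions nor roles. The aligner, the annotation release and any strand setting were not given in the sources used here. Overlapping genes and paralogs are therefore uncertain. Per the labels' protocols, reads were 150 bp paired-end. Groups came from the sample titles. The treatment label of the combined group names the cytokine differently ("IL125"). The 11 libraries hold replicates 2 and 3 of that group and no replicate 1.

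Symbols (25275 of 27179 IDs matched) and gene coordinates came from RefSeq, and strands, exon lengths and overlaps from GENCODE M21 (GRCm38). The test was edgeR's quasi-likelihood F (version 4.0.16, R 4.3.3), fitted to all 11 libraries with a mean for each group, after TMM scaling (factors 0.904 to 1.12) and filterByExpr at a minimum count of 10, which left 15028 genes. P-values were adjusted by Benjamini-Hochberg over all tested genes, and genes were called below 0.05. "Rose" and "fell" are used for called genes. The SE, the size of the log2 fold change over the root of F, is approximate. The common biological coefficient of variation was 0.282. The fit was tested on simulated data.

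All 10 members are named, and of each list at most 4 called genes per comparison with the smallest p. Results for some list genes are not reported here. Members and lists were chosen with earlier results of these data known, and lists were described by counts and medians with no set test. Alternatives were DESeq2 1.42.0, limma voom (limma 3.58.1), other scalings and filters, only the groups compared, a replicate block, and leaving out each library. Libraries within a group differed by more than sampling noise (chi-square per degree of freedom 15.8 to 53.9).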

Additional observations from a re-analysis of the deposited data

How the results depend on the processing

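Of 1190 recomputed log2 fold changes of members, 1083 kept their direction and side of the threshold, 47 lost a call, 17 gained one and 43 changed sign. None of the 43 was called before or after the change. Bid with ADM2, and Bcl2, Bcl2l1 and Bcl2l11 with IL-25, kept their calls in both backgrounds under all 20 alternatives. The count of members called varied on leaving out 1 library from 2 to 7 in ADM2 versus vehicle and from 3 to 5 in IL-25 versus vehicle. The calls over all genes moved too, from 1662 to 2555 in the first (2227 in the main fit). In the second they fell to as few as 2520 (3503). The member count was 4 with DESeq2 for ADM2 on top of IL-25, where 2741 of all genes were called (2198 by edgeR). The number of libraries limits what can be called: without IL-25 plus ADM2 replicate 2 or 3, which leaves 1 library assumed to vary like the other groups, 1320 and 1263 genes were called against IL-25 (2198 with both) and 987 and 739 against ADM2 (1630). Against vehicle 1644 were called without replicate 3 (3042). For the difference of the ADM2 effect the 5 calls became 46 with DESeq2, 47 without a filter, 1 with limma voom, 3 with a minimum count of 30, and 0 to 6 on leaving out 1 library. Pmaip1, Bad and Bid, the members with the fewest counts, had the widest intervals.

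The replicate block called 5, 4, 2, 3, 5 and 0 members in the 6 comparisons, against 6, 5, 2, 3, 6 and 0 without it. Bax with ADM2, Bad with IL-25 and Bbc3 with both against vehicle were lost. Over all genes the block called 1853, 3050, 1653, 1125, 2456 and 2, against 2227, 3503, 2198, 1630, 3042 and 5 without it. Same-numbered libraries did not deviate together (correlations -0.0726 to 0.0685), so the numbers were not taken as pairs.

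Library totals moved the median of all genes by -0.13, -0.23, -0.04, -0.14 and -0.27 on the log2 scale in the first 5 comparisons. Values that changed sign under this scaling were Bak1 (-0.036) and Bad (-0.10) with ADM2, Mcl1 with IL-25 (-0.14) and in IL-25 plus ADM2 versus ADM2 (-0.13), Bbc3 in the latter (-0.14), none larger in size than the shift of their comparison, and Mcl1 in the difference of the ADM2 effect (0.014). Other scalings and tools gave Bad with ADM2 -0.016 (limma voom) and -0.019 (replicate block). They gave Pmaip1 with ADM2 on top of IL-25 0.0085 (upper quartile). For Bbc3 in IL-25 plus ADM2 versus ADM2 they gave -0.0081 (limma voom), -0.0089 (upper quartile) and -0.0027 (replicate block). Bak1 in IL-25 plus ADM2 versus vehicle became 0.0073 (DESeq2 and median ratio) and 0.0013 (minimum count of 30). The cause was not tested.

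On leaving out 1 library, values that changed sign ran from -0.20 to 0.23 for Bad with ADM2, and for ADM2 on top of IL-25 from -0.068 to 0.17 for Bcl2l11 and -0.14 to 0.036 for Pmaip1. In IL-25 plus ADM2 versus ADM2 they ran from -0.26 to 0.23 for Bbc3, -0.13 to 0.023 for Pmaip1 and -0.69 to 0.053 for Bad. Against vehicle they ran from -0.27 to 0.00055 for Bax, -0.078 to 0.059 for Bak1 and -0.67 to 0.079 for Bad. In the difference of the ADM2 effect they ran from -0.098 to 0.0088 for Mcl1, -0.22 to 0.27 for Bbc3, -0.099 to 0.18 for Bax, -0.0016 to 0.19 for Bak1 and -0.15 to 0.19 for Bid.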
